A study of Mus musculus with 4 samples.

Results

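The genes described here are those of the lysosomal proton pump, the cathepsins, the lysosomal membrane glycoproteins and the core autophagy machinery in the adult mouse heart. They were chosen by symbol: every row of the count tables starting with Atp6v, Atp6ap or Atg and a digit, every Cts symbol with 1 closing letter, and 13 named genes from Lamp1 to Tfe3. The rule found 74 of 23420 gene rows and used no measured value. The series holds 4 libraries of 1 group, all labelled C57BL/6J (wild type per the series text), male and 12 weeks old, with no treatment and no control group. The tissue label reads whole heart, while the protocol gives the frozen apex of the ventricles. Polyadenylated RNA was sequenced without keeping strand, so overlapping genes on opposite strands cannot be told apart. Nothing in the labels states outright that each library is a separate animal, so the spread between them may in part be technical.

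Libraries are called hearts 1 to 4 after the numbers in their titles and held 10523709 to 15359296 reads assigned to genes. All 7 cardiomyocyte markers looked up were at 1 CPM (counts scaled to a library total of 1e6 gene counts) or more, led by Myh6 at 49907 ± 4767 CPM (SD, n = 4). Hearts 2 and 3 went against their male label. Xist, made from the inactive X of female cells, had 5, 1897, 1806 and 19 counts in hearts 1 to 4, and the Y-linked Ddx3y had 341, 0, 1 and 437. Calls, median spreads and the genes of widest and narrowest spread are therefore also given for hearts 1 and 4 alone.

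Lysosomes degrade material delivered by endocytosis and autophagy at an acid pH. The vacuolar ATPase (V-ATPase) builds that pH: its cytosolic V1 sector splits ATP and turns a ring in the membrane-bound V0 sector, which carries protons into the lumen. Cathepsins are the proteases that work there. In autophagy, the ULK kinases and the Beclin 1 complex start a double membrane, the ATG conjugation enzymes attach ATG8 proteins (LC3 and GABARAP) to it, and receptors such as p62 bind cargo to ATG8. In heart muscle this pathway renews mitochondria and proteins in cells that rarely divide, and loss of LAMP2 in people causes Danon disease, a cardiomyopathy with autophagic vacuoles.

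Genes of this system were mostly expressed, and a single protease led them. Of the 74 rows, 58 reached a mean of 1 CPM (78.4%), against 52.8% of all gene rows, and 13 reached 100 CPM (17.6%, against 5.98% of all rows). Another 7 had at most 5 counts in any heart, and 9 had 0 counts in all 4. Together they took 5845, 5810.4, 5761 and 5990.9 CPM in hearts 1 to 4, a mean of 5852 ± 99.0 CPM (SD, n = 4) or 0.585% of gene counts. Cathepsins made up 40.4% of that sum, autophagy genes other than transcription factors 38.8% and the V-ATPase with its accessory proteins 12.4%. The sums of hearts 1 to 4 differed by a factor of 1.04 between the highest and the lowest.

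**Figure D1:**
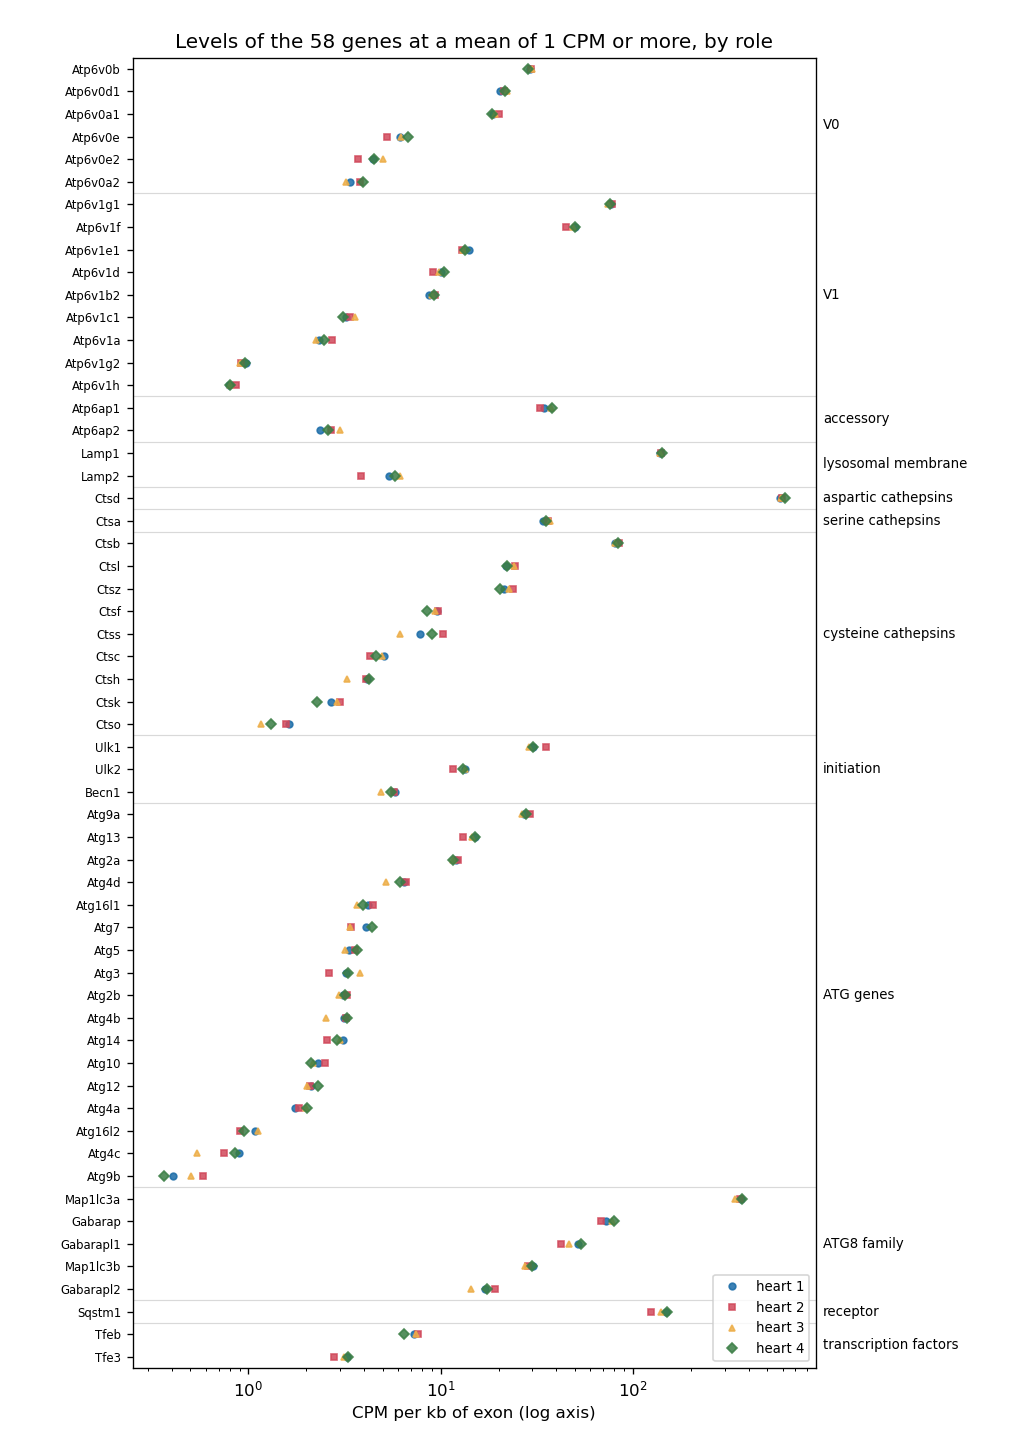
Level of each of the 58 genes at a mean of 1 CPM or more, in CPM per kb of exon on a log axis, with 1 symbol per heart and genes grouped by role. Ctsd at 596 and Map1lc3a at 359 CPM per kb stand farthest right, Atg9b at 0.464 farthest left, and the 4 hearts lie close together for most genes.

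The V0 sector was expressed through its widely used subunits. Atp6v0a1, the large a1 subunit that lines the proton path, had 123, 132, 126 and 121 CPM in hearts 1 to 4, the highest count of the sector. Atp6v0b, a subunit of the proton-carrying ring, had 59.95, 60.6, 61.005 and 58.5 CPM, and Atp6v0d1, which links the sectors, had 36.5, 38.4, 39.6 and 38.7 CPM. No heart stood apart for these 3 genes, whose coefficients of variation (CV, SD over mean) were 4.01%, 1.85% and 3.44%. Compared per kb of exon (length of all annotated exons merged, GENCODE M21), Atp6v0b stood at 29.3 ± 0.540 CPM per kb, Atp6v0d1 at 21.4 ± 0.734 and Atp6v0a1 at 19.1 ± 0.766 (SD, n = 4). Per kb of coding sequence Atp6v0a1, at 49.8, stood above Atp6v0d1, at 36.4, so the order of these subunits depended on the length used. Of the small e subunits, Atp6v0e had 22.8, 19.5, 22.996 and 25.2 CPM in hearts 1 to 4 and Atp6v0e2 had 10.5, 8.84, 11.9 and 10.7 CPM, a ratio of 1.38 per kb of exon, 2.32 per kb of coding sequence and 7.86 by the length of the transcript with the longest coding sequence. Atp6v0a2, the a2 form best known from the Golgi, had 22.6, 25.6, 21.6 and 26.6 CPM, and Atp6v0a1 exceeded it 5.35-fold per kb of exon and 10.3-fold by that transcript length. The a3 form, Tcirg1, lies outside the symbol rule and had 16.6 ± 0.865 CPM.

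Forms of V0 known from kidney and osteoclasts were near 0. Atp6v0a4, the a4 subunit of acid-secreting kidney cells, had 2, 4, 3 and 1 counts in hearts 1 to 4. Summed over hearts, Atp6v0a1 exceeded it 515-fold per kb of exon, with exact 95% limits of 280 to 1074 that cover counting error only. Atp6v0d2, the osteoclast form of subunit d, had 1, 1, 1 and 4 counts, and Atp6v0d1 exceeded it 448-fold (217 to 1117), or 296-fold in counts alone. Of 5 osteoclast markers looked up, 3 had 0 counts in all hearts and the sum was 1.004 ± 0.474 CPM.

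The main subunit of the proton ring, Atp6v0c, was listed at 0 counts in all 4 hearts. A count of 0 allows up to 3 counts, or 0.195 to 0.285 CPM depending on the heart. Its row is uncertain as a level: a near-identical copy of its coding sequence exists, and alignments that were not unique, 8.13 to 8.48% of listed reads, are held outside the gene rows. The coding sequence of Atp6v0c (chr17:24163866-24169702, minus strand, GRCm38) and the processed pseudogene Atp6v0c-ps2 (chr6:37806086-37806550, plus strand), which also had 0 counts, were compared over 465 bases. They were identical at 464 of them (99.8%). The stretch that holds the only difference, coding bases 1 to 150, is shown with that base in capitals:
Atp6v0c: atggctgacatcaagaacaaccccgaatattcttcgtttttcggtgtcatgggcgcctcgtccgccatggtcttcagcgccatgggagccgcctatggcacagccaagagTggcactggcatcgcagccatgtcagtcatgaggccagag
Atp6v0c-ps2: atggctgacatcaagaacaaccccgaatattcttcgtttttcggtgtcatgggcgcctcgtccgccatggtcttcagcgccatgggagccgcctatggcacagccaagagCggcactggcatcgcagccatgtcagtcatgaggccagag

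RefSeq lists Atp6v0c-ps2 at 1133 bases and another copy, Atp6v0c-ps1 on chromosome 7, at 1121 bases, against 1183 bases for the coding transcript of Atp6v0c. Both copies are annotated at close to the length of that transcript. In GENCODE M21, where Atp6v0c-ps2 is annotated at 465 bases, 32.5% of the 50-base words of the Atp6v0c transcript recur in other transcripts. The remaining words do not recur there. The sequence of Atp6v0c-ps1 was not compared. Whether reads of Atp6v0c were lost to these copies was not tested, since the aligned reads were not used here. The summed V0 level of 281 ± 4.36 CPM (SD, n = 4) therefore leaves out its ring subunit c.

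The V1 sector was also expressed through widely used forms, with a wide range between subunits. Atp6v1g1, a stalk subunit, had 87.1, 88.1, 84.3 and 86.5 CPM in hearts 1 to 4, and Atp6v1f, of the central shaft, had 53.3, 47.6, 52.1 and 53.3 CPM. They led the sector per kb of exon, at 76.2 ± 1.42 and 48.5 ± 2.52 CPM per kb. Atp6v1e1, the partner of G in the stalks, had 57.7, 53.2, 53.9 and 55.1 CPM, or 13.4 ± 0.476 CPM per kb, and stood next. The ATP-splitting head had less. Its regulatory B subunit Atp6v1b2 had 45.9, 49.4, 47.8 and 49.2 CPM, or 9.06 ± 0.300 CPM per kb, and its catalytic A subunit Atp6v1a stood at 2.45 ± 0.206 CPM per kb. Atp6v1d, of the central shaft, stood at 9.86 ± 0.530 CPM per kb. Per kb of exon the lowest V1 gene above 1 CPM was Atp6v1h, a regulatory subunit, with 7.77, 8.41, 7.79 and 7.81 CPM or 0.815 ± 0.0315 CPM per kb. A and B subunits come in equal number in the pump, yet the message of B2 exceeded that of A per kb of exon in these hearts, and likewise per kb of coding sequence (31.4 against 7.99). Counts of Atp6v1g1 and Atp6v1f are uncertain, since 19.2% and 18.2% of the 50-base words of their transcripts also occur in processed pseudogenes.

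Tissue-restricted V1 forms had 0 or few counts. Atp6v1b1, the kidney form of B, had 1, 1, 0 and 2 counts in hearts 1 to 4, and Atp6v1c2, a form of C known from kidney and lung, had 1, 3, 0 and 1. Atp6v1b2 exceeded Atp6v1b1 538-fold per kb of exon over summed counts (210.04 to 1978), and Atp6v1c1, with 18.1, 19.0, 20.1 and 17.4 CPM, exceeded Atp6v1c2 78.0-fold (33.3 to 241), or 201-fold in counts alone. Atp6v1g3 and the testis form Atp6v1e2 had 0 counts in all hearts, so Atp6v1g1 was at least 2603-fold and Atp6v1e1 at least 316-fold higher per kb, taking 3 counts over the group as the limit. In counts alone these bounds were 1566-fold and 995-fold. Atp6v1g2, the G form of neurons, was the exception, with 2.43, 2.30, 2.28 and 2.41 CPM. Atp6v1g1 exceeded it 80.0-fold per kb of exon and 36.2-fold in counts alone.

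Of the accessory proteins, Atp6ap1, needed to assemble V0, had 104, 99.1, 113 and 115 CPM in hearts 1 to 4, and Atp6ap2, the (pro)renin receptor, had 6.18, 7.04, 7.89 and 6.77 CPM. The sets did not overlap, and Atp6ap1 was 13.3-fold higher per kb of exon, a log2 ratio of 3.74 ± 0.14 (SD, n = 4). Atp6ap1l had 3, 5, 0 and 1 counts. In each of the 25 pairs of genes compared within hearts, the ratio kept its direction in 4 of 4 hearts. The two-sided exact sign-flip permutation test over 4 hearts then gives p = 0.13, the smallest it can give, also after adjustment over the 25 pairs, so no pair could pass 0.05.

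**Figure D2:**
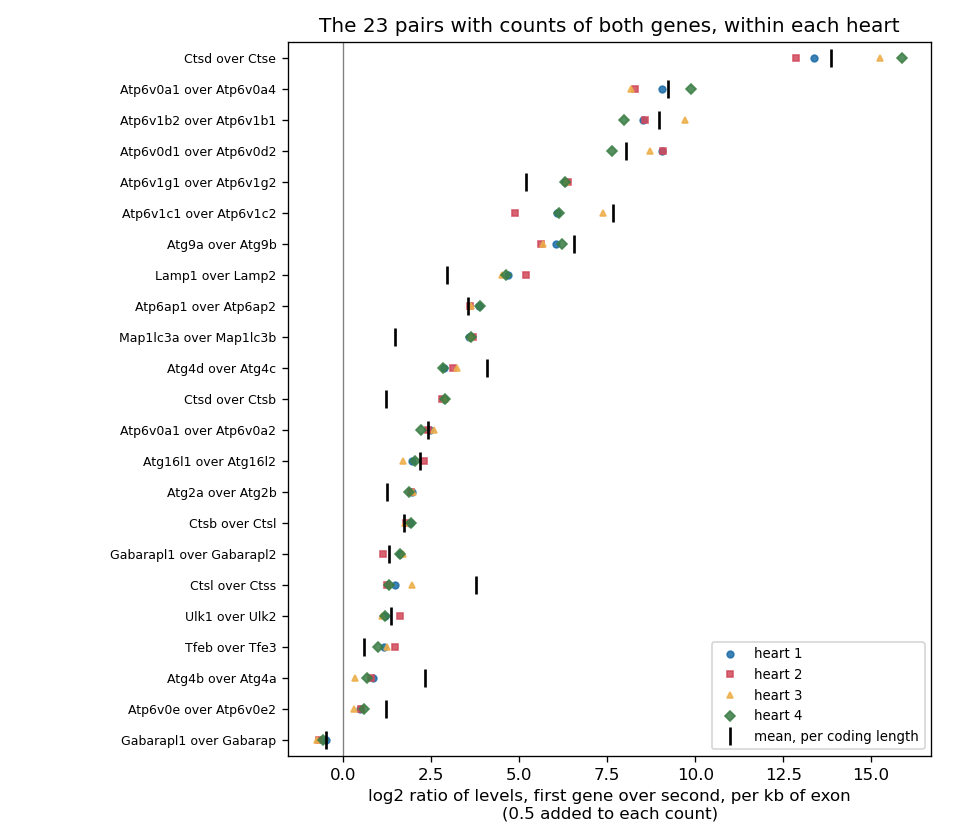
Log2 ratio of levels between 2 genes of a pair, per kb of exon, with 1 symbol per heart, for the 23 pairs in which both genes had counts; the black tick is the mean per kb of coding sequence. Gabarapl1 over Gabarap is the one pair left of 0, and the ticks show how far a ratio such as Lamp1 over Lamp2 moves with the length used.

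Lysosomal membrane protein LAMP1 was far above its relative LAMP2 in message and varied little between hearts. Lamp1 had 370.4, 375, 371 and 378 CPM in hearts 1 to 4, a CV of 0.950%. Lamp2, which carries the receptor for chaperone-mediated autophagy among its splice forms, had 51.4, 37.0, 58.6 and 55.1 CPM, with heart 2 lowest. Lamp1 exceeded Lamp2 26.8-fold per kb of exon, but 7.68-fold per kb of coding sequence and 7.499-fold in counts alone. The size of that gap thus rests on the 9552 bases of merged exon annotated for Lamp2, of which no single transcript exceeds 3604.

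Cathepsin D dominated the proteases. Ctsd, the aspartic cathepsin of the lysosome (chr7 in GRCm38), had 1371, 1394, 1387 and 1451 CPM in hearts 1 to 4 and ranked 61 among all gene rows by count. Alone it gave 23.9% of the counts of all 74 genes. Ctsb, a cysteine protease that also trims peptides from the ends, had 487, 509, 486 and 507 CPM, and the more general cysteine protease Ctsl had 141, 158, 156 and 144 CPM. Ctsd exceeded Ctsb 7.25-fold per kb of exon and 2.33-fold per kb of coding sequence, and Ctsb exceeded Ctsl 3.56-fold and 3.27-fold. Ctsa, the serine carboxypeptidase that also protects neuraminidase and beta-galactosidase, had 161, 171, 175 and 167 CPM. Each of these 4 varied little, with CVs between 2.47 and 5.76%. In GENCODE M21, 34.4% of the exon bases of Ctsd and 26.8% of those of Ctsl are shared with other annotated genes (Gm49369 for Ctsd, Gm47123 and Gm49230 for Ctsl), so their counts depend on how shared reads were treated, which is not stated for these files. Smaller shares of exon bases overlapped other genes for Ctsa (17.4%, Neurl2 and Pltp) and Ctsb (12.8%, Fdft1).

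The other cathepsins had fewer counts. Ctsf, a cysteine protease with a long propeptide, had 48.2, 48.6, 47.1 and 42.8 CPM, and Ctsz, a carboxypeptidase, had 30.9, 34.1, 32.5 and 29.2 CPM. Per kb of exon Ctsz, at 22.0 ± 1.46 CPM per kb, overlapped Ctsl, at 23.1 ± 1.33, across hearts. Per kb of coding sequence Ctsl, at 149.7, stood far above Ctsz, at 34.5. Ctsc, which activates serine proteases of immune granules, had 29.5, 25.1, 28.8 and 26.8 CPM, and the aminopeptidase Ctsh had 18.6, 18.5, 14.7 and 19.0 CPM. Ctss, the cathepsin of antigen-presenting cells that cuts the invariant chain, had 10.6, 13.9, 8.36 and 12.2 CPM, Ctso averaged 7.27 ± 1.11 CPM, and Ctsk, the collagen-degrading cathepsin of osteoclasts and fibroblasts, averaged 4.11 ± 0.475 CPM (SD, n = 4). Ctss had the highest CV of the 11 cathepsins at 1 CPM or more (CV 21.05%), highest in heart 2 and lowest in heart 3. Per kb of exon Ctsl exceeded Ctss 2.82-fold, but 13.7-fold per kb of coding sequence: Ctsl has 6489 bases of merged exon and 1002 coding bases.

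Several of these proteases are also abundant in macrophages, and fewer such cells cannot be told apart here from less message per cell. All 18 macrophage and leukocyte markers were at 1 CPM or more, summing to 472, 437, 417 and 477 CPM in hearts 1 to 4, with Csf1r at 72.2 ± 4.45 CPM the highest. Their sum was lowest in heart 3, where Ctss and Ctsh were also lowest. Ctsc was instead lowest in heart 2, at 25.1 CPM, and Ctsz and Ctsk in heart 4, at 29.2 and 3.45 CPM. Heart 2 had the highest Ctss beside the next lowest marker sum, and single markers were mixed there. Cx3cr1, Laptm5 and Fcgr1 had the same order of hearts as Ctss, while Csf1r, Adgre1, Cd68, Lyz2 and Cd163 were lowest in heart 2. The part of macrophages in these levels was not tested.

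Cathepsins known from other tissues had 0 or few counts. Ctse, the aspartic cathepsin of stomach and immune cells, had 2, 3, 0 and 0 counts, and Ctsd exceeded it 20506-fold per kb of exon over summed counts (8787 to 63157). Ctsw, of cytotoxic lymphocytes, had 4, 5, 3 and 2 counts. Ctsg of neutrophil granules and the placental cathepsins Ctsj, Ctsm, Ctsq and Ctsr had 0 counts in all hearts.

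Ulk1 led the initiation genes. This kinase, which responds to mTORC1 and AMPK, had 197, 230, 187 and 195 CPM in hearts 1 to 4, with heart 2 above the rest. Its relative Ulk2 had 80.0, 69.4, 80.3 and 78.6 CPM, with heart 2 below the rest. Per kb of exon Ulk1 exceeded Ulk2 2.41-fold, a log2 ratio of 1.18, 1.61, 1.10 and 1.20 in hearts 1 to 4, and by the length of the transcript with the longest coding sequence 4.20-fold. Becn1, the scaffold of the lipid kinase complex, had 40.9, 40.3, 34.8 and 39.2 CPM. Its count is uncertain, since 43.9% of its exon bases overlap Cntd1 and the libraries do not keep strand.

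All 17 ATG genes reached a mean of 1 CPM, from 1.83 ± 0.392 CPM for Atg9b to 159 ± 6.48 CPM for Atg9a (SD, n = 4). Atg9a, the membrane protein of the vesicles that seed the autophagosome, led with 156, 168, 153 and 160 CPM. Atg2a, which moves lipid into the growing membrane, had 92.9, 94.5, 89.4 and 89.7 CPM, and Atg13, a subunit of the ULK complex, had 66.2, 56.9, 63.4 and 66.0 CPM. The paralogs were lower in every heart: Atg9b had 1.596, 2.30, 1.995 and 1.43 CPM, and Atg2b had 42.0, 43.8, 39.9 and 43.0 CPM. Per kb of exon Atg9a exceeded Atg9b 59.4-fold and Atg2a exceeded Atg2b 3.80-fold; per kb of coding sequence these were 94.5-fold and 2.36-fold. Counts of Atg9a are uncertain, since 32.6% of its exon bases are shared with Ankzf1 and Gm29253.

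The enzymes that conjugate ATG8 proteins to lipid were lower. Atg7, which activates both ATG8 and ATG12, had 28.4, 23.7, 23.5 and 30.7 CPM in hearts 1 to 4. Atg3, which passes ATG8 to lipid, had 10.2, 8.26, 12.1 and 10.4 CPM, and Atg10, which passes ATG12 to ATG5, had 3.96, 4.31, 3.71 and 3.65 CPM. Atg7 had the most counts of the 3 in every heart. Of the complex that places ATG8 on the membrane, Atg16l1 had 40.3, 42.6, 35.3 and 38.0 CPM, Atg12 averaged 16.5 ± 0.960 CPM and Atg5 8.09 ± 0.502 CPM (SD, n = 4). Atg16l2 had 9.23, 7.69, 9.50 and 8.07 CPM, and Atg16l1 exceeded it 3.97-fold per kb of exon and 9.41-fold by the length of the transcript with the longest coding sequence. Atg14, which directs the Beclin 1 complex to autophagy, averaged 12.5 ± 1.04 CPM. In CPM per kb of exon, Atg7, Atg5 and Atg3 stood at 3.81 ± 0.510, 3.44 ± 0.213 and 3.24 ± 0.493, and their ranges over hearts overlapped.

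Of the ATG4 proteases, which trim ATG8 before it is attached and release it afterwards, Atg4d and Atg4b were the main forms by count. Atg4d had 47.1, 48.1, 37.9 and 44.9 CPM in hearts 1 to 4, and Atg4b had 26.1, 26.6, 21.0002 and 27.1 CPM. Both were lowest in heart 3. Atg4a had 4.65, 4.89, 5.32 and 5.40 CPM and Atg4c had 2.98, 2.51, 1.81 and 2.86 CPM. Atg4d exceeded Atg4c 8.07-fold per kb of exon and 16.9-fold per kb of coding sequence, and Atg4b exceeded Atg4a 1.58-fold per kb of exon and 4.97-fold per kb of coding sequence. The count of Atg4a may miss reads, since 63.6% of its 50-base words recur elsewhere, chiefly in the copy Atg4a-ps, and 19.3% of the exon bases of Atg4d overlap Kri1.

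The ATG8 family gave 916 ± 36.2 CPM (SD, n = 4), led by LC3A. Map1lc3a had 430.2, 428, 402 and 435 CPM in hearts 1 to 4, and Map1lc3b, whose protein is the usual laboratory marker of autophagosomes, had 228, 213, 205 and 225 CPM. The hearts did not overlap between these genes. Map1lc3a exceeded Map1lc3b 12.4-fold per kb of exon, 2.78-fold per kb of coding sequence and 1.94-fold in counts, so that the order held and the size did not. Gabarap had 134, 126, 143 and 147 CPM, Gabarapl1 104, 84.7, 93.3 and 108 CPM, and Gabarapl2 39.3, 44.5, 33.3 and 40.6 CPM. Gabarapl1 was at 0.649 times the level of Gabarap per kb of exon and 2.86 times that of Gabarapl2. Counts of Gabarapl2 are uncertain, since 17.0% of its 50-base words recur in other transcripts, chiefly those of a processed pseudogene, and 28.3% of the exon bases of Gabarapl1 overlap 1700101I11Rik.

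Sqstm1, encoding the cargo receptor p62 that is itself degraded by autophagy, was among the members with the most counts. It had 498, 419, 470.1 and 506 CPM in hearts 1 to 4, lowest in heart 2, and ranked 230 among all gene rows. Per kb of exon it stood at 141 ± 11.8 CPM per kb, and Lamp1, at 139.7 ± 1.33, lay within that spread (SD, n = 4). Of its exon bases, 17.3% overlap Mrnip.

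The transcription factors that switch on lysosomal genes summed to 69.7 ± 2.11 CPM (SD, n = 4). Tfeb had 41.1, 43.2, 42.3 and 36.7 CPM in hearts 1 to 4 and Tfe3 had 30.3, 25.7, 29.1 and 30.4 CPM. Tfeb exceeded Tfe3 2.31-fold per kb of exon, a log2 ratio of 1.21 ± 0.20 (SD, n = 4), 1.51-fold per kb of coding sequence and 3.82-fold by the longest transcript. Their proteins are known to be held in the cytosol by phosphorylation, which RNA does not measure.

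A few promoters of the members held the core of the element that TFEB and TFE3 are known to bind, called CLEAR. RefSeq promoter sequences (GRCm38.p6, 250 bases before to 50 bases after each start) were matched for 58 of the 74 genes, with 67 promoters in all. These 58 were taken at any level, and 47 of them were at 1 CPM or more. All matches in members fell among those 47 genes. The core, TCACGTGA, which reads the same on both strands, was in 6 of the 67 promoters (8.96%, exact 95% limits 3.36 to 18.5%), against 1.79% of 12398 promoters of genes at 1 CPM or more in these hearts and 0.974% of all 32851. The broader E-box CACGTG, which the core contains, was in 19.4% of them, against 9.83% and 7.15%. GTCACGTG on either strand was in 11.9%, against 4.03% and 2.25%. Among the other lysosomal genes looked up the core was in 4 of 34 promoters, those of Clcn7, Gla, Igf2r and Mcoln1. It was in 0 of 28 promoters of the other autophagy genes and 0 of 22 of regulators of TFEB and autophagy. With a share of 1.79% over promoters of genes at 1 CPM or more, nothing is read from those counts of 0. The E-box was in 8 of 34, 3 of 28 and 4 of 22 promoters of these lists. These shares are descriptions, and a match is not a bound site.

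The 6 promoters were those of 5 lysosomal genes and of Atg3. Each is shown with flanking bases, in the gene's own direction and with the core in capitals, since these are the windows in which the match lies. The core starts 13 bases before and 4 bases after the annotated start in Ctsa, 99 before in Ctsd, 4 before in Atp6v0d1, 132 before in Atp6v1a, 72 before in Atg3 and 2 after in Atp6v0e. The windows lie at chr2:164833720-164833796 (plus strand), chr7:142387907-142387966 (minus), chr8:105566049-105566108 (minus), chr16:44139372-44139431 (minus), chr16:45158717-45158776 (plus) and chr17:26676358-26676417 (plus), in the order of the lines:
Ctsa: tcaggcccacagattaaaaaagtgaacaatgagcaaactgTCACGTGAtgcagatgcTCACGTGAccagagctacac
Ctsd: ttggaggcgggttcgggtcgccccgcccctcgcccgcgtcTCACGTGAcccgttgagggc
Atp6v0d1: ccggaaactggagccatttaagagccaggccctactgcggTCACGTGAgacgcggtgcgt
Atp6v1a: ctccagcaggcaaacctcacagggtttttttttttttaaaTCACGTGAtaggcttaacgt
Atg3: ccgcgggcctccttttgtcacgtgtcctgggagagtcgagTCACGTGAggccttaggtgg
Atp6v0e: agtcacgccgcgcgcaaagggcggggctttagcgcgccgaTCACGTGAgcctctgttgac

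The genes with these promoters differed widely in level. Their means ran from 10.2 CPM for Atg3 and 14.8 CPM for Atp6v1a to 168 CPM for Ctsa, which holds the core at 2 places, and 1401 CPM for Ctsd.

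None of these genes passed the test for a wider spread between hearts than genes of like abundance. Each gene's spread was set against genes of like abundance as a variance ratio. This is its quasi-dispersion from edgeR's quasi-likelihood fit with an intercept only, divided by the fitted trend. A ratio of 1 lies on the trend, and most genes lay under it. Of the 58 genes that could be tested, 0 were called more variable at an adjusted p under 0.05, where 0.445% of the 12358 genes tested were called. With so small a share called, nothing is read from that count of 0. At an unadjusted p under 0.05 the count was 1, Lamp2, against 6.00% of all genes tested. The same count of 0 came from limma, with 1 at an unadjusted p under 0.05, and from the dispersion outliers of DESeq2. The median variance ratio was 0.745, against 0.852 over all genes tested, and 36 of the 58 lay under 1 (62.1%, against 56.5%). The median CV was 7.07%, against 9.59%. Unlike the variance ratio, the CV is not set against genes of like abundance. Members at 1 CPM or more had a median level of 39.2 CPM, against 16.6 CPM for all such gene rows. In hearts 1 and 4 alone 0 of the 58 were called, but only 6 of 12345 genes were (0.0486%), so that count says little. There the median variance ratio was 0.297, against 0.469 over all genes tested, and the median CV 2.96%, against 4.94%.

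**Figure D3:**
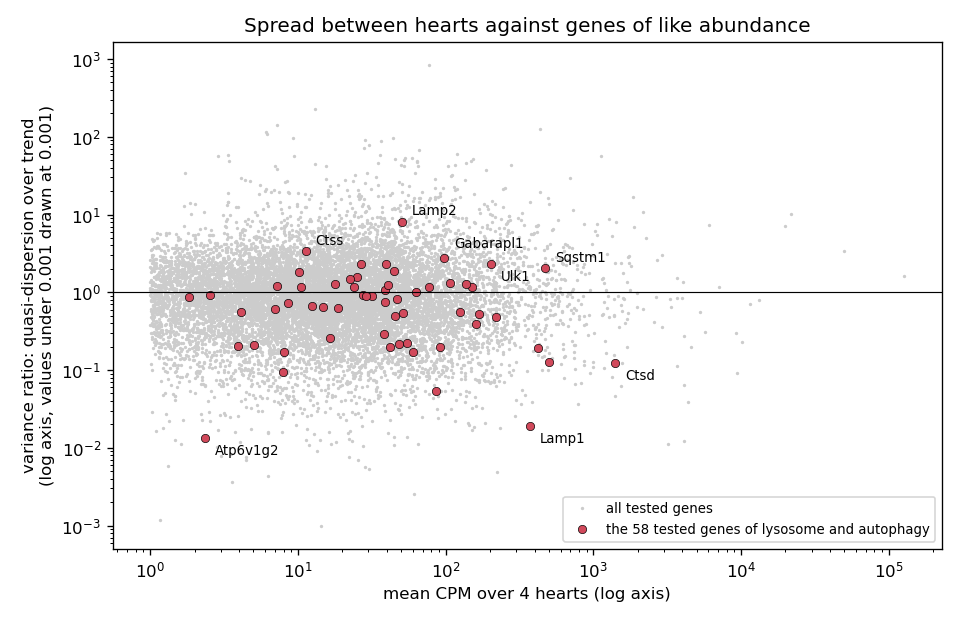
Variance ratio of every tested gene (grey) and of the 58 tested genes described here (red) against mean CPM, both on log axes; the line marks a ratio of 1. Lamp2 at 8.10 is the highest red point and Atp6v1g2 at 0.0132 the lowest, and the red points lie within the grey cloud.

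Lamp2 came closest to a call. Its variance ratio was 8.10, with an unadjusted p of 0.00980 and an adjusted p of 0.433 in edgeR's quasi-likelihood test. Heart 2, at 37.0 CPM, lay below the 51.4 to 58.6 CPM of the other 3, and without heart 2 the ratio was 1.41, with an adjusted p of 0.996 in edgeR. Over the alternatives run, that adjusted p lay between 0.0682 and 0.996. In hearts 1 and 4 alone the ratio was 0.832, with an adjusted p of 0.984 in edgeR. The next widest were Ctss at 3.36, Gabarapl1 at 2.76, Ulk1 at 2.32, Atg7 at 2.30 and Gabarapl2 at 2.30, with adjusted p-values of 0.910 to 0.980 in the same test. They did not share an order: heart 2 was lowest for Lamp2 and Gabarapl1 and highest for Ctss, Ulk1 and Gabarapl2. The narrowest were Atp6v1g2 at 0.0132, Lamp1 at 0.0189, Atp6v1g1 at 0.0534, Atp6v1h at 0.0949, Ctsd at 0.122 and Ctsb at 0.126. Lamp1 and Lamp2, close relatives on the same organelle, thus stood at or near opposite ends over 4 hearts. In hearts 1 and 4 alone the other 5 of the widest genes had ratios of 0.0990 to 1.17. The 6 narrowest had 0.000791 to 1.43 there, with Ctsd the highest of them, so this order rests on all 4 hearts.

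**Figure D4:**
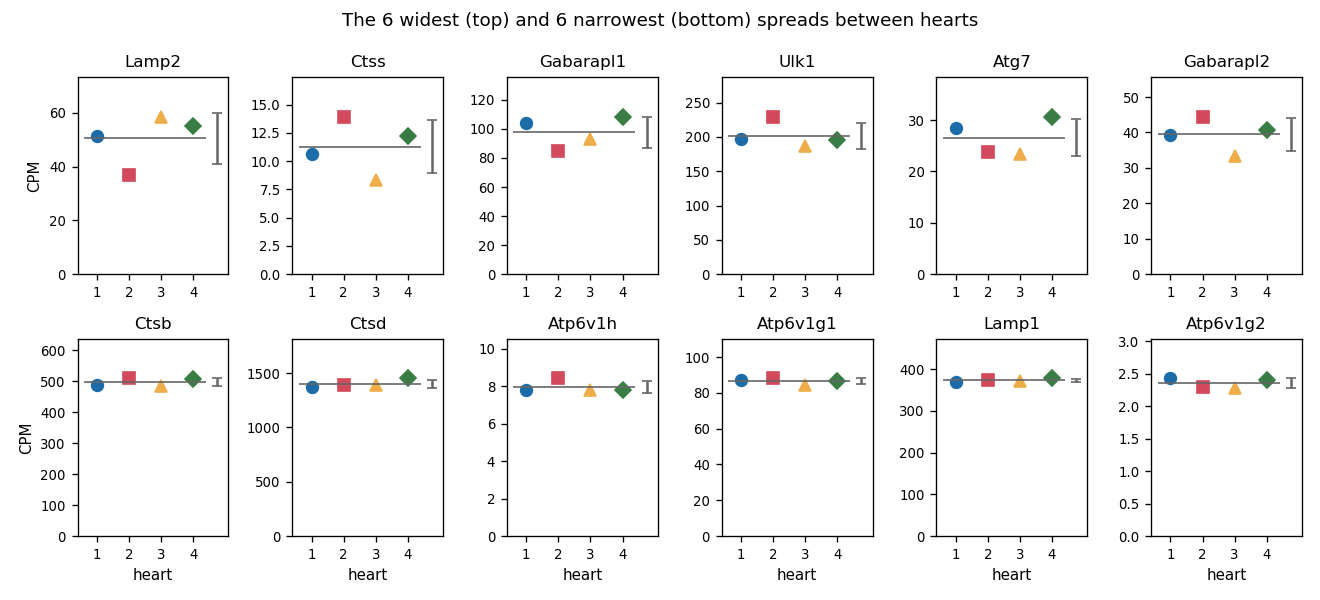
CPM in hearts 1 to 4 of the 6 tested genes with the widest spread (top row) and the 6 with the narrowest (bottom row) relative to genes of like abundance; the grey line is the mean and the bar beside it 1 SD (n = 4). Each vertical axis starts at 0 and has its own scale, and heart 2 stands lowest for Lamp2 and highest for Ulk1.

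Each heart had the lowest value for some of the 58 genes and the highest for others. Heart 1 had the lowest value for 9 of them (15.5%, against 19.8% of all genes tested), heart 2 for 17 (29.3%, against 30.7%), heart 3 for 23 (39.7%, against 33.4%) and heart 4 for 9 (15.5%, against 16.1%). The highest value fell in heart 1 for 10 (17.2%, against 21.6%), in heart 2 for 21 (36.2%, against 28.5%), in heart 3 for 10 (17.2%, against 22.9%) and in heart 4 for 17 (29.3%, against 27.0%). By role, the ATG genes summed to 569.6, 569.9, 534 and 569.7 CPM in hearts 1 to 4, lowest in heart 3, and the V1 sector ran from 327 to 335 CPM.

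Among the 74 genes, 5 lie on chromosome X: Atp6ap1, Atp6ap2, Lamp2, Tfe3 and Atg4a. Their per-heart values, given above, had no common order. Lamp2, Tfe3 and Atp6ap1 were lowest in heart 2, and Atp6ap2 and Atg4a were lowest in heart 1. Lamp2 and Atp6ap2 were highest in heart 3, and Tfe3, Atp6ap1 and Atg4a in heart 4. Of the 5, 0 were called more variable; with 0.445% of all genes tested called, nothing is read from that count.

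In the wider pathway 1 gene was called, and with 0.445% of all genes tested called, nothing is read from the counts of 0. All 39 other lysosomal genes looked up were tested and 0 were called, where 0.445% of all genes tested were, with a median variance ratio of 0.539 and a sum of 4269 ± 36.6 CPM (SD, n = 4). They were led by Psap, the precursor of the saposins that help split sphingolipids, at 1557 ± 68.9 CPM. The cathepsin inhibitor cystatin C, Cst3, followed at 490.02 ± 10.9 CPM and Igf2r, the receptor that sorts hydrolases to the lysosome, at 383 ± 30.3 CPM. Npc1, which exports cholesterol from the lysosome, had a spread like that of Lamp2, with 81.2, 56.7, 85.05 and 83.8 CPM in hearts 1 to 4, a variance ratio of 8.19 and an adjusted p of 0.433 in edgeR's quasi-likelihood test. Heart 2 was again the low one. In hearts 1 and 4 alone the ratio of Npc1 was 0.153. A low heart 2 was not particular to this system. Among cell type markers, Dcn of fibroblasts (180 CPM, variance ratio 8.81) and Cd163 of macrophages (14.8 CPM, variance ratio 15.8) were also lowest there. Col3a1 of fibroblasts was instead highest in heart 2, at 325 CPM with a variance ratio of 8.33. Of the 27 other autophagy genes 0 were called, against the same 0.445%, and their sum was 1751 ± 37.1 CPM, led by Bag3, a cochaperone of selective autophagy in muscle, at 404 ± 21.5 CPM, Calcoco1 at 209.6 ± 7.96 CPM and Nbr1 at 122 ± 3.02 CPM.

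Of 23 regulators of TFEB and autophagy, 1 was called more variable, where 0.445% of all genes tested were. Ddit4, a stress-induced inhibitor of mTORC1 also known as REDD1, had 60.3, 17.2, 50.8 and 53.2 CPM in hearts 1 to 4, with an adjusted p of 0.0138 in edgeR's quasi-likelihood test. Heart 2 alone was low, and without it the gene was no longer called (adjusted p = 0.996, edgeR). Nor was it called in hearts 1 and 4 alone (adjusted p = 0.944, edgeR) or when the prior was fitted without robustness (adjusted p = 0.101, edgeR). Over the alternatives run, its adjusted p lay between 2.06e-07 and 0.996. In hearts 1 and 4 alone 0 genes of these 3 lists were called. The 74 genes summed to 5810.4 CPM in heart 2, between the 5761 and 5990.9 CPM of hearts 3 and 4. Whether Ddit4 bears on their level was not tested. Mtor itself had 145 ± 3.55 CPM and Tsc2, another inhibitor of the pathway, 282 ± 12.3 CPM, and Prkaa2, the main catalytic AMPK subunit of muscle, 124 ± 6.33 CPM (SD, n = 4).

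Level per kb of exon was higher for members with more G and C in their transcript. Over the 58 genes, which share libraries and depth, Spearman's rho was 0.471 across genes, against 0.293 over 11954 coding genes at 1 CPM or more. Genes are not independent replicates. The part of base composition in the order of members was not tested.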

How the data were processed

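RNA of 4 mouse heart libraries was counted per gene by the authors. The deposited files hold raw counts per gene symbol, not normalized. The submitters' processing notes list edgeR, DESeq, HTSeq, Bowtie2, TopHat and TopHat2 2.0.10 with build mm10, without saying what each did. Which annotation was used, and how overlapping genes were counted, is not stated. The 5 closing rows name no gene and were left out; alignments that were not unique made up 8.13 to 8.48% of listed reads.

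Computed here were CPM over all gene counts, and spread between hearts with edgeR 4.0.16 in R 4.3.3 (intercept only, trimmed mean of M-values factors, robust prior, F test on 3 and 7.42 degrees of freedom, Benjamini-Hochberg over all genes averaging 1 CPM or more; limma 3.58.1 and DESeq2 1.42.0 as alternatives). On simulated counts of 12358 genes with 1 or 2 hearts shifted for some genes, it called 37.0% at a shift of 2-fold, 92.6% at 4-fold and 0.0938% of genes left as they were. Ratios within hearts added 0.5 to each count. GENCODE M21 (GRCm38, which is mm10) gave lengths, positions and 50-base words and was matched for 23050 gene rows (98.4%). All 74 members matched. Limits of 95% are exact and cover counting error only.

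Members, lists and pairs were chosen with earlier results of these data known. Values in all hearts are given for the 3 genes of each role highest per kb of exon, both genes of each pair, the 6 widest and 6 narrowest spreads and members on X; Ctsc, Ctsf, Ctsh, Atg3, Atg10 and Npc1 were added after their values were seen. The other members are given by mean or count. The p-values measure only the spread between these libraries. Alternatives were other scaling, filters, priors, tools and lengths, and leaving out hearts.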

Additional observations from a re-analysis of the deposited data

Results flagged for a closer look

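Of 96 results looked at over 4 hearts, 6 had 1 heart far from the other 3, its gap to the nearest taking up most of the whole range (Dixon's criterion); chance flags about 1 in 20. The summed level of the ATG genes was 534 CPM in heart 3 against 569.6 to 569.9 CPM in the other hearts. Atg4b, which is part of that sum, had 21.0002 CPM in heart 3 against 26.1 to 27.1 CPM in the others. Ctsh had 14.7 CPM in heart 3 against 18.5 to 19.0 CPM. Atp6v1h had 8.41 CPM in heart 2 against 7.77 to 7.81 CPM, a difference of under 1 CPM in a gene with a variance ratio of 0.0949. Ulk2 had 69.4 CPM in heart 2 against 78.6 to 80.3 CPM. The log2 ratio of Gabarapl1 to Gabarapl2 per kb of exon was 1.14 in heart 2 against 1.61 to 1.69 in the others. None of the 4 single genes was called more variable by edgeR. Heart 3 held the fewest gene counts, 10523709, and had the lowest value for 33.4% of all genes tested. Whether depth bears on these flags was not tested.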

How the results depend on the processing

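The count of 0 members called more variable was 0 under all 12 alternatives, and at an unadjusted p under 0.05 edgeR and limma gave 0 to 2 members. Over all genes the count was 55 and moved to 258 with no filter on low counts, 10 when the prior was fitted without robustness, 129 as DESeq2 dispersion outliers and 6 in hearts 1 and 4 alone, and ran from 39 to 69 with 1 heart left out. Ddit4 lost its call without heart 2, in hearts 1 and 4 alone and under a prior without robust fitting (adjusted p = 0.101, edgeR). All 25 pair ratios kept their direction under each of 10 alternatives, including coding length and transcript length, which were chosen after seeing the data. Their sizes did not hold: most moved by over 1.5 times with at least 1 other length or with no length correction. The number of members at 1 CPM kept within 1.5 times of 58 in all 6 alternatives. Leaving Rn45s, the ribosomal RNA precursor, out of the total raised each sum by more than its SD, by construction: all members to 6707 CPM, V0 to 322, V1 to 379, accessory proteins to 132, lysosomal membrane to 486, aspartic cathepsins to 1605, serine cathepsins to 193, cysteine cathepsins to 910.1, initiation genes to 365, ATG genes to 643, the ATG8 family to 1050.2, Sqstm1 to 542 and the transcription factors to 79.9. With other scaling factors or hearts left out, these sums moved by less than 1 SD. The promoter share was 8.96% for the core and moved to 19.4% for the E-box. No paired analysis was possible because the 4 hearts form 1 group. Depth limits the 7 members with at most 5 counts in a heart, whose ratios are loose.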
